A study of Mus musculus with 12 samples.

Results

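The genes described here are 8 regulators of muscle formation: *Pax7*, *Cdh15*, *Myf5*, *Myod1*, *Six4*, *Myog*, *Myf6* and *Mymk*. They were chosen by name for their known roles, but with earlier results of these data known. Each was found by its NCBI Gene ID among the 27179 genes of a count table of mouse tibialis anterior (TA) muscle. The study introduced *FRAIL1*, a human long noncoding RNA, into mouse muscle to learn how forced expression changes the fibers. The 12 muscles came from male wild-type C57BL/6N mice that were 6 to 8 weeks old on arrival and entered experiments within 2 weeks. The 6 Control muscles received empty pcDNA3.1(+) plasmid, and the 6 *FRAIL1* muscles received the same plasmid with the *FRAIL1* cDNA in it. All 12 muscles were injected with hyaluronidase, given 10 μg of plasmid and electroporated, and all were taken at day 7. Both legs of a mouse were used, with the empty plasmid opposite the *FRAIL1* plasmid, but the labels do not say which 2 muscles share a mouse, so the muscles were compared as unpaired groups. The CMV promoter of this plasmid is not restricted to muscle fibers. Injection and electroporation are common to both groups, and a muscle without them is not analysed here. Electroporation reaches an unstated share of the fibers, and *FRAIL1*, being human, is not among the mouse genes counted, so the dose that each muscle expressed is not known from these counts.

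Skeletal muscle repairs itself from satellite cells, stem cells that lie between the fiber and its basement membrane. *Pax7* is the transcription factor that marks them, and *Cdh15* encodes M-cadherin, an adhesion protein between satellite cell and fiber. *Myf5* and *Myod1* encode the basic helix-loop-helix factors that commit these cells to the muscle lineage, and *Six4* encodes a homeodomain factor that works upstream of them. *Myog* (myogenin) drives the step from dividing myoblast to differentiating myocyte, *Myf6* (Mrf4) is the member of that family most abundant in mature fibers, and *Mymk* encodes myomaker, the membrane protein that lets myocytes fuse. *Myog* is also switched on inside existing fibers when they lose their nerve. RNA was taken from whole muscle, so for each of these genes more cells of a type and more RNA per cell cannot be told apart.

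Levels are given as CPM, the deposited counts scaled to library size with TMM factors. Total counts lay between 44848322 and 60527385 per muscle, and the 8 genes held between 68 and 9180 counts in a muscle, fewest for *Pax7* and *Myf5*. The fiber genes that define the labelled tissue were abundant, with *Myh4*, *Acta1* and *Myh1* at 45865, 34536 and 15409 CPM in the mean of the 6 Control muscles. *FRAIL1* muscle 5 stood apart from the other 11, with a TMM factor of 1.19 and a position of 49.5 on the first principal component, where the next muscle was at 21.0. The fold changes of the 8 genes, and of the genes around them in which this muscle was far from its group, are therefore also given without it. None of the 8 genes shares an exon with another annotated gene, and none has a copy of 98% identity or more over 100 bases elsewhere among the transcripts searched.

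*Mymk* and *Myog* were the 2 of the 8 genes that passed the test, and both rose in the *FRAIL1* muscles, *Mymk* 3.61-fold and *Myog* 2.75-fold. Over the 15502 genes tested, 6.28% were called in either direction and 4.43% were called higher (p under 0.05 in the quasi-likelihood test of edgeR, adjusted by Benjamini-Hochberg over all genes tested). Of the other 6 genes, *Pax7*, *Myf5*, *Myod1*, *Myf6* and *Cdh15* had higher means in the *FRAIL1* muscles and *Six4* a lower one, and none passed that threshold. The unadjusted p was under 0.05 for 6 of the 8, against 27.7% of all genes tested. DESeq2's Wald test, the tool the study used, called 5 of the 8, *Pax7*, *Myf5* and *Myod1* in addition to *Myog* and *Mymk*, where it called 14.3% of all genes tested. Without *FRAIL1* muscle 5 the edgeR test again called *Myog* and *Mymk* and no other of the 8, with 3.69% of all genes called higher.

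**Figure D1:**
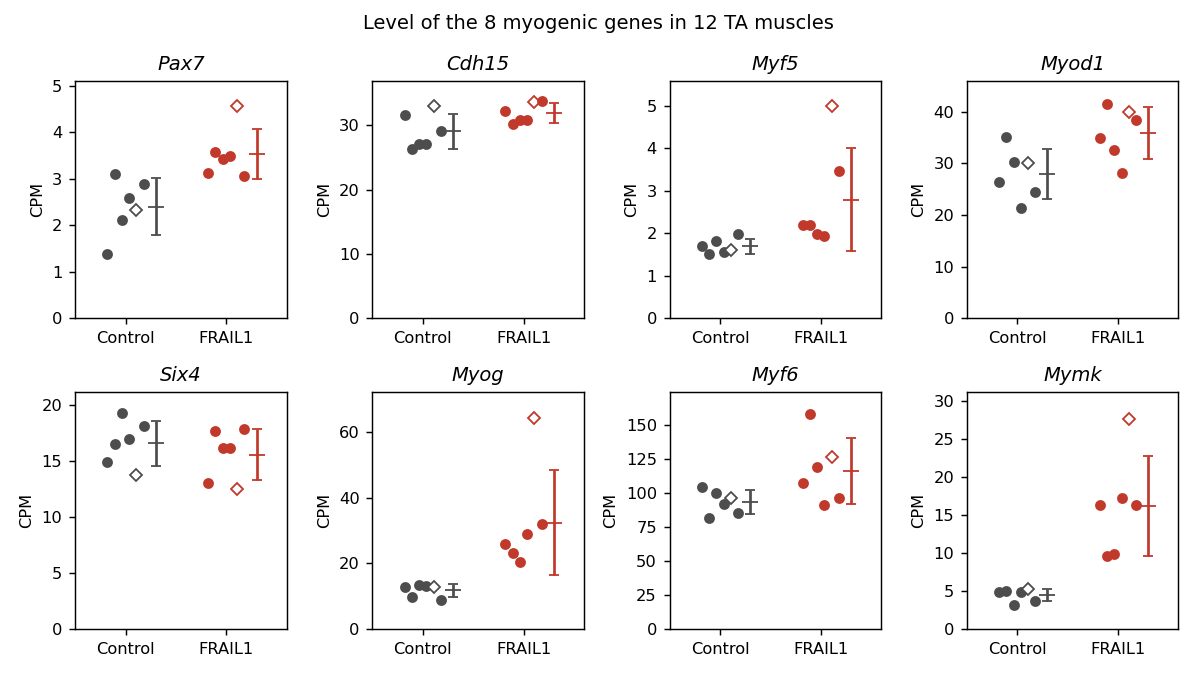
Level of each gene (y axis, CPM, from 0) in the 6 Control and 6 FRAIL1 muscles (x axis). Each point is 1 muscle, the muscles numbered 5 are open diamonds, and the bars are the mean and SD. For Myog and Mymk all 6 FRAIL1 points lie above all 6 Control points, and the open diamond is the highest FRAIL1 point for Pax7, Myf5, Myog and Mymk.

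The satellite cell genes come first in the order of the lineage. *Pax7* (Gene ID 18509, chromosome 4 of GRCm38, 139737062 to 139833528) was between 1.38 and 3.11 CPM in the Control muscles, with a median of 2.45. In the *FRAIL1* muscles it was between 3.06 and 4.56 CPM, with a median of 3.45. The groups overlapped by a narrow margin, since 5 of the 6 *FRAIL1* muscles lay above the highest Control muscle and muscle 5 was the highest of all. The log2 fold change was 0.56 (standard error, SE, 0.174, edgeR adjusted p = 0.0634), and it was 0.47 without *FRAIL1* muscle 5. *Cdh15* (Gene ID 12555, chromosome 8, 122847966 to 122867397) was between 26.3 and 33.1 CPM in Control muscles, median 28.1, and between 30.2 and 33.8 CPM in *FRAIL1* muscles, median 31.5. Its coefficient of variation was 9.51% in Control and 4.83% in *FRAIL1* muscles, the lowest of the 8 genes in the latter group. The groups overlapped, with 2 *FRAIL1* muscles above the highest Control muscle. Its log2 fold change was 0.13 with a 95% interval from -0.0021 to 0.27 (edgeR adjusted p = 0.186), and it was 0.12 without *FRAIL1* muscle 5. An increase of M-cadherin mRNA above 1.21-fold lies outside that interval.

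The commitment factors had higher means without passing the threshold. *Myf5* (Gene ID 17877, chromosome 10, 107482908 to 107486134) was between 1.5 and 1.97 CPM in Control muscles, with a median of 1.64. In *FRAIL1* muscles it was between 1.94 and 4.99 CPM, with a median of 2.19. The spread was uneven: 4 *FRAIL1* muscles were at 2.19 CPM or less, and muscles 6 and 5 were at 3.47 and 4.99 CPM. The log2 fold change was 0.72 (SE 0.227, edgeR adjusted p = 0.0645) and 0.47 without *FRAIL1* muscle 5, so this 1 muscle moved it by more than 1 standard error. *Myod1* (Gene ID 17927, chromosome 7, 46376474 to 46379099) was between 21.4 and 35.1 CPM in Control muscles, median 28.2, and between 28.2 and 41.6 CPM in *FRAIL1* muscles, median 36.7. The Control muscles alone spanned much of this range, and 3 of the 6 *FRAIL1* muscles lay above all of them. Its log2 fold change was 0.36 (SE 0.117, edgeR adjusted p = 0.0725), and 0.33 without *FRAIL1* muscle 5. *Myf5* and its neighbour *Myf6* lie next to each other on chromosome 10, and their values are given separately because their transcripts share no exon.

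*Six4* was the exception in direction. *Six4* (Gene ID 20474, chromosome 12, 73099609 to 73113456) was between 13.8 and 19.3 CPM in Control muscles, median 16.7, and between 12.5 and 17.8 CPM in *FRAIL1* muscles, median 16.1. The ranges lay almost on top of each other, with 2 *FRAIL1* muscles, among them muscle 5, below the lowest Control muscle. The log2 fold change was -0.09 with a 95% interval from -0.31 to 0.13 (edgeR adjusted p = 0.596), and it was -0.04 without *FRAIL1* muscle 5.

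*Myog* (Gene ID 17928, chromosome 1, 134289989 to 134292548, plus strand) was at 12.8, 9.76, 13.5, 13.2, 12.6 and 8.71 CPM in Control muscles 1 to 6. It was at 26.0, 23.0, 20.3, 29.0, 64.1 and 32.0 CPM in *FRAIL1* muscles 1 to 6. The lowest *FRAIL1* muscle was well above the highest Control muscle, so the groups did not overlap, which was so for 3.12% of all genes tested in this direction. Muscle 5 was far above its group, with the other 5 within 20.3 to 32.0 CPM. The means were 11.8 ± 2.01 and 32.4 ± 16.1 CPM (SD, n = 6 each), and the log2 fold change was 1.46 (95% interval 0.89 to 2.03, edgeR adjusted p = 0.0124). Without *FRAIL1* muscle 5 the log2 fold change was 1.14 and the gene was called again. The adjusted p stayed under 0.05 in all 24 alternative fits run, and was highest, at 0.0331, without Control muscle 2.

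*Myf6* (Gene ID 17878, chromosome 10, 107492853 to 107494737), the family member of mature fibers, was between 81.5 and 105 CPM in Control muscles, median 94.4. In *FRAIL1* muscles it was between 91.4 and 158 CPM, median 114. Here muscle 2 and not muscle 5 was the highest, and 4 of the 6 *FRAIL1* muscles lay above all Control muscles. The log2 fold change was 0.32 (SE 0.116, edgeR adjusted p = 0.0992), and 0.29 without *FRAIL1* muscle 5.

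*Mymk* (Gene ID 66139, chromosome 2, 27061636 to 27072179, minus strand) was at 4.84, 4.93, 3.19, 4.91, 5.29 and 3.64 CPM in Control muscles 1 to 6. It was at 16.3, 9.57, 9.82, 17.3, 27.7 and 16.4 CPM in *FRAIL1* muscles 1 to 6. The groups did not overlap, and every *FRAIL1* muscle was above 9 CPM while every Control muscle was below 6 CPM. The means were 4.47 ± 0.842 and 16.2 ± 6.60 CPM (SD, n = 6 each). The log2 fold change was 1.85 (95% interval 1.32 to 2.39, edgeR adjusted p = 0.00265), the largest of the 8, and 1.63 without *FRAIL1* muscle 5. Its adjusted p was under 0.05 in all 24 alternative fits run, with a highest value of 0.00933.

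**Figure D2:**
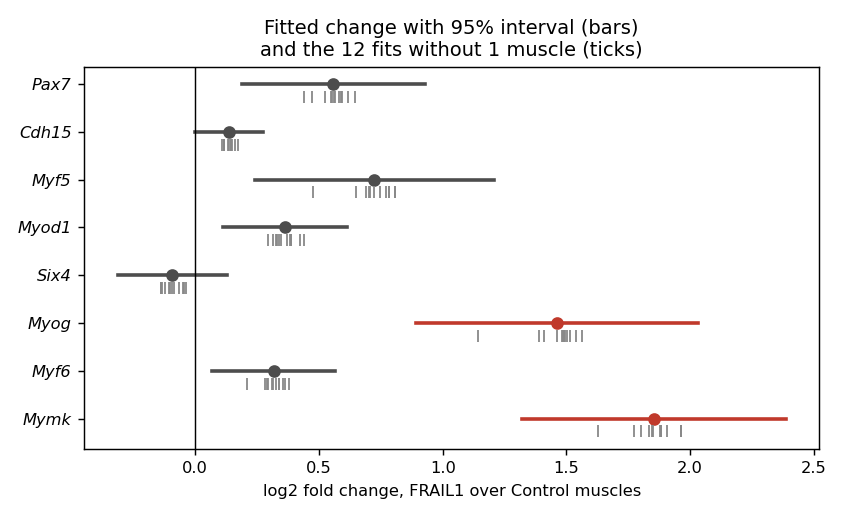
Fitted log2 fold change of each gene (x axis, FRAIL1 over Control) with its 95% interval (bars), and the value in each of the 12 fits that left out 1 muscle (ticks). Called genes are in red. The intervals of Myog, 0.89 to 2.03, and Mymk, 1.32 to 2.39, lie apart from those of Cdh15 and Six4, and the tick farthest to the left for Myog is the fit without FRAIL1 muscle 5.

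The plot of fitted changes sets these values on 1 scale. The coefficient of variation among the *FRAIL1* muscles was 49.6% for *Myog* and 40.8% for *Mymk*, against 17.1% and 18.9% in the Control muscles. For *Myf5* it was 43.7% in *FRAIL1* and 10.5% in Control muscles. These coefficients, without *FRAIL1* muscle 5, were 17.7% for *Myog*, 27.5% for *Mymk* and 27% for *Myf5*, of which that of *Myog* lay close to its Control value. *Pax7*, *Myod1* and *Cdh15* went the other way, with a smaller coefficient in the *FRAIL1* muscles than in the Control muscles. These spreads are descriptions and were not compared by a test. *FRAIL1* muscle 5 was the highest of its group for 4 of the 8 genes and the lowest for *Six4*.

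Because genes differ in transcript length, their levels were set side by side only per length, as RPKM over the longest protein-coding transcript of the gene. In Control muscles *Myf6* led with 74.1 ± 7.0 RPKM (SD, n = 6), followed by *Myod1* at 15.0 ± 2.62, *Cdh15* at 8.94 ± 0.850 and *Myog* at 7.87 ± 1.34 RPKM. *Mymk* at 3.23 ± 0.609, *Six4* at 2.43 ± 0.296, *Myf5* at 0.812 ± 0.0856 and *Pax7* at 0.410 ± 0.105 RPKM were lower. Neighbours in this order had ranges that did not overlap, except *Cdh15* with *Myog* and *Mymk* with *Six4*. In *FRAIL1* muscles the order was *Myf6* at 92.3 ± 19.2 RPKM, *Myog* at 21.7 ± 10.8, *Myod1* at 19.3 ± 2.69, *Mymk* at 11.7 ± 4.78 and *Cdh15* at 9.82 ± 0.475 RPKM. *Six4* at 2.28 ± 0.336, *Myf5* at 1.34 ± 0.585 and *Pax7* at 0.604 ± 0.0924 RPKM kept the last places. *Myog* thus took the fourth place in Control muscles and the second in *FRAIL1* muscles, where its range overlapped that of *Myod1*. *Myf6* remained the most abundant of the 4 myogenic helix-loop-helix factors in both groups, and *Myf5* the least abundant.

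**Figure D3:**
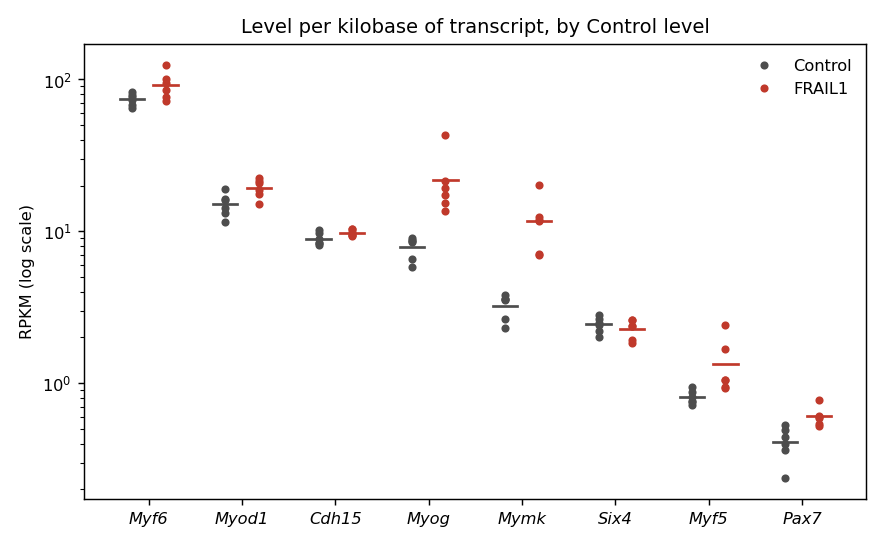
Level per length of each gene (y axis, RPKM, log scale) in Control and FRAIL1 muscles, ordered along the x axis by the Control mean. Points are single muscles (n = 6 per group) and lines are group means. Myf6 is highest in both groups, and Myog moves from 7.87 to 21.7 RPKM, past Cdh15 and to the level of Myod1.

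Whether these genes moved by different amounts was tested on the log2 ratio of each pair within a muscle, which does not depend on the scaling between libraries. For all 28 pairs the ratio was compared between groups by an exact permutation test over all splits of the 12 muscles into 6 and 6, two-sided, with Benjamini-Hochberg adjustment over the 28 pairs. The smallest unadjusted p this test can give is 0.00216. Ratios changed for 14 pairs, of which 11 were among the 13 pairs that hold *Myog* or *Mymk* and 3 among the 15 that hold neither. Both genes were called on the same 12 muscles, so this split restates their calls and is no separate evidence. The groups did not overlap for 9 pairs. When signs were flipped within muscles of the same number instead, 0 of 28 ratios passed (lowest adjusted p = 0.0583, exact sign-flip test). The smallest unadjusted p of that sign-flip test is 0.03125.

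The ratios give the size of the difference between *Myog* or *Mymk* and the other regulators. *Myog* over *Myod1* rose by 1.0 on the log2 scale (SE 0.276, adjusted p = 0.0101, exact permutation test), *Myog* over *Myf5* by 0.74 (adjusted p = 0.00673, same exact test) and *Myog* over *Cdh15* by 1.23 (adjusted p = 0.00673, same exact test). *Myog* over *Myf6*, the ratio of the early to the late differentiation factor, rose by 1.07 (SE 0.280, adjusted p = 0.00673, exact permutation test) and did not overlap between groups. *Mymk* over *Pax7* rose by 1.19 (adjusted p = 0.0186, same exact test), over *Cdh15* by 1.63 and over *Six4* by 1.87 (adjusted p = 0.00673 each, same exact test). *Mymk* over *Myog* was 0.41 higher in the *FRAIL1* muscles (SE 0.178, adjusted p = 0.0535, exact permutation test), which missed the threshold. *Myog* over *Pax7* was 0.78 higher (SE 0.311) and missed it with the same adjusted p of 0.0535 in the exact permutation test.

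Among the genes without a called change the ratios were closer. *Six4* fell against *Pax7* by 0.68 (adjusted p = 0.0101, exact permutation test) and against *Myf5* by 0.72 (adjusted p = 0.00673, same exact test), and *Myf5* rose against *Cdh15* by 0.48 (adjusted p = 0.0390, same exact test). The ratio of *Pax7* to *Myf5* moved least, by -0.04 (SE 0.261), and that of *Myod1* to *Myf6* was next, at 0.07 (SE 0.153). Neither passed the exact permutation test.

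**Figure D4:**
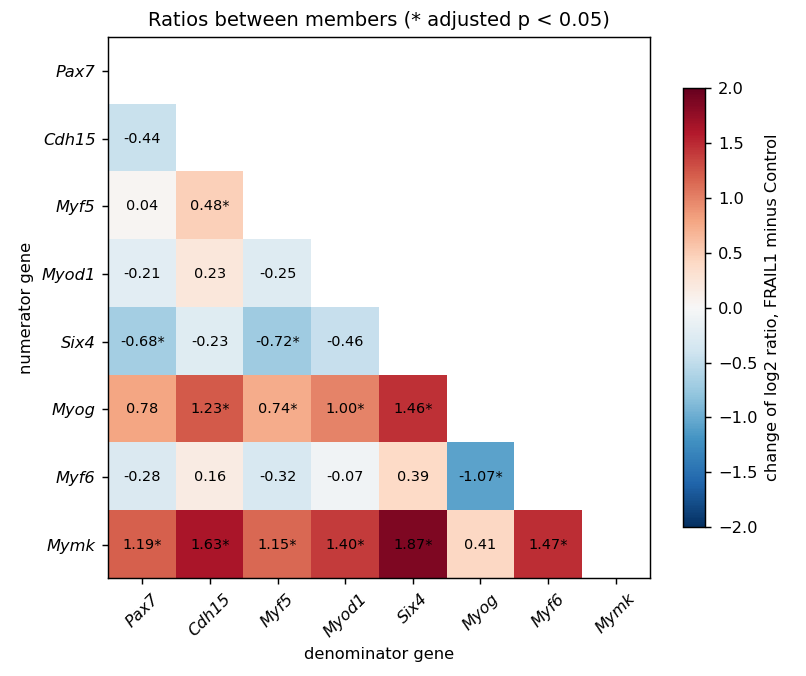
Change in the log2 ratio of each pair of genes, FRAIL1 minus Control (colour scale and printed value), with the numerator gene on the y axis and the denominator gene on the x axis. Stars mark the 14 pairs with an adjusted p under 0.05 in the exact permutation test. The rows of Myog and Mymk are red against almost every other gene, and Six4 is blue against Pax7 and Myf5.

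The promoters of *Myog*, *Myf5* and *Chrna1* are printed to set the sequence of a gene that rose beside a family member that did not pass the test and beside the gene whose pattern was among the nearest to *Myog*. *Chrna1* encodes the alpha subunit of the muscle acetylcholine receptor, a classical target of the myogenic factors. Each sequence is the 250 bases before a RefSeq transcription start on GRCm38.p6, 5′ to 3′ on the strand of the gene. Capitals mark an E-box (CANNTG, the site of helix-loop-helix factors, of which CAGCTG is 1 form) and a MEF3 site (TCAGGTTTC), bound by factors such as that of *Six4*, searched on both strands. The *Myog* window is chr1:134289754-134290003 on the plus strand, the *Myf5* window chr10:107486135-107486384 on the minus strand and the *Chrna1* window chr2:73580339-73580588 on the minus strand.
Myog: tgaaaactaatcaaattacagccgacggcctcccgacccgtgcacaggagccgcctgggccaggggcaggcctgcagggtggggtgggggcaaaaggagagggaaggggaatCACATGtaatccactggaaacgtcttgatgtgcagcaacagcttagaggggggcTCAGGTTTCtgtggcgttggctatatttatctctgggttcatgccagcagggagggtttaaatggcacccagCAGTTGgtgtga
Myf5: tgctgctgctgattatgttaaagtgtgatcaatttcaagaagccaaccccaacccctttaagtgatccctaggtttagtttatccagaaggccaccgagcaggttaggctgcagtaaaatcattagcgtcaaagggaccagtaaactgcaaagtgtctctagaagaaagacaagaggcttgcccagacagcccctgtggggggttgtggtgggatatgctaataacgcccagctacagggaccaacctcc
Chrna1: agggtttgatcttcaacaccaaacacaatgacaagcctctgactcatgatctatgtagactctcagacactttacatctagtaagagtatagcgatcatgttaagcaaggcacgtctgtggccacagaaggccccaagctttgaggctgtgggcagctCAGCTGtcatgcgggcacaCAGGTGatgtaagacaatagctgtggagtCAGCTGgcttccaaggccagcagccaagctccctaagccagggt
The *Myog* window held 2 E-boxes, at bases -138 to -133 and -12 to -7 from the start, and a MEF3 match at -84 to -76. Of 32851 promoters searched, 66.2% held an E-box and 0.387% the MEF3 letters, so E-boxes are common and MEF3 matches are rare among promoters. The *Chrna1* window held 3 E-boxes, 2 of them CAGCTG, a form found in 13% of promoters. In the *Myf5* window none of these letters was found, and nor were they in that of *Pax7*. *Cdh15* had 3 E-boxes, and 1 of the windows of *Six4* held a MEF3 match on the opposite strand at -99 to -91. Of the 21 called list genes, 17 had a window, and *Chrna1* was picked from these. The windows of *Myl4*, *Itgb1* and *Cdc42*, which were also called higher, held no E-box and no MEF3 match. A match describes letters and not binding, and a link between these letters and the changes was not tested. The promoter table matched 5 of the 8 genes, and *Myod1*, *Myf6* and *Mymk* were the others.

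The genes whose *FRAIL1* to Control ratios ran most like those of the called genes were ranked over 13010 genes with a mean of 1 CPM or more. The measure was the root mean square difference of the log2 ratios between muscles of the same number, over 6 numbers. The ranking rests on these numbers, although the labels do not say what a number marks. Deviations from the group means of the 2 muscles numbered 5 correlated at only 0.0723, and those of the other numbers at 0.197 to 0.350. For *Mymk* the nearest was *Mymx* (Gene ID 653016), which encodes myomixer, the second muscle-specific fusion protein, with a difference of 0.225. *Tnnt2*, the troponin T of heart and embryonic muscle, followed at 0.260, and *Myl4*, an embryonic and atrial myosin light chain, at 0.274. For *Myog* the nearest were a gene listed only by Gene ID 100502649 (0.263), *Chrna1* (0.283) and *Vash2* (0.297). *Mymx* itself was at 0.834 ± 0.245 CPM in Control and 2.83 ± 1.20 CPM in *FRAIL1* muscles (SD, n = 6 each), a log2 fold change of 1.76 (SE 0.268, edgeR adjusted p = 0.00324) that was 1.50 without *FRAIL1* muscle 5. All 6 *FRAIL1* muscles lay above all 6 Control muscles for *Mymx*, as for 3.12% of all genes tested.

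Of 87 further genes of the pathway in 6 lists, 20 rose and 1 fell, where 4.43% of all genes tested were called higher and 1.85% lower. The lists were drawn up with earlier results of these data known. The largest share was among the targets of the differentiation factors, where 12 of 18 rose and none fell, with a median log2 fold change of 1.14. The median of all genes tested was 0.00959. The lists of satellite cell genes, of homeodomain factors and their cofactors, of dimer and cofactor partners, of inhibitors and of other fusion genes had medians of 0.28, -0.11, 0.043, 0.048 and 0.13. Without *FRAIL1* muscle 5 the 6 lists again had 20 genes higher, 13 of them among the differentiation targets, and none lower. In that fit 3.69% of all genes tested were called higher.

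**Figure D5:**
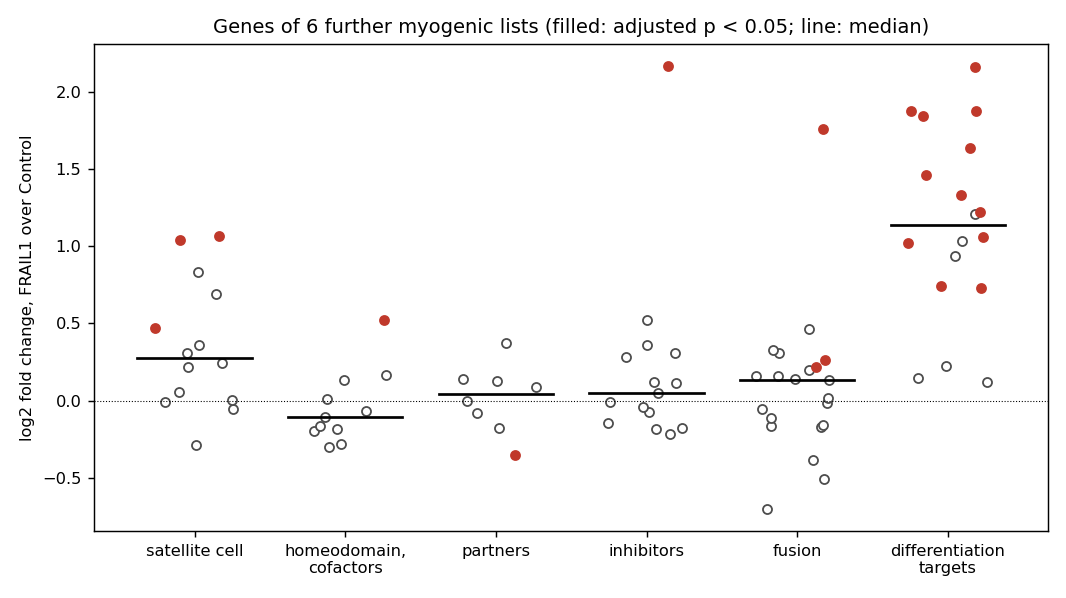
Log2 fold change (y axis, FRAIL1 over Control) of each gene of the 6 further lists (x axis). Each point is 1 gene, filled where the adjusted p was under 0.05, and lines are list medians. The differentiation targets lie above 0 in all 18 cases with a median of 1.14, while the medians of the other lists lie between -0.11 and 0.28.

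Subunits of the acetylcholine receptor were among the differentiation targets with the smallest p. *Chrna1* went from 29.5 ± 3.56 to 81.0 ± 19.2 CPM (SD, n = 6 each; log2 fold change 1.46, edgeR adjusted p = 3.4e-04). *Chrng*, the subunit of the fetal receptor, went from 3.51 ± 1.14 to 12.9 ± 3.56 CPM (log2 fold change 1.88, edgeR adjusted p = 0.0016). *Chrnd* and *Chrnb1* had log2 fold changes of 1.22 and 0.73. These receptor genes are known to be expressed by fibers as well as by differentiating myoblasts. *Mybph*, a myosin-binding protein, and *Tnnt2* rose by 1.06 and 1.64 on the log2 scale, and *Adora1* on the opposite strand overlaps 49.9% of the *Mybph* transcript. The other 6 that rose were *Hes6*, *Myl4*, *Myh3* and *Myh8* (the embryonic and perinatal myosin heavy chains), *Cdkn1a* (an inhibitor of the cell cycle) and *Myl6b*. *Myl6b* lost its call in 9 of 24 alternatives, and *Myh8* and *Cdkn1a* were each called in 22. *Myh3*, at 51.0 ± 8.70 CPM in Control and 228 ± 162 CPM in *FRAIL1* muscles, changed most, by 2.16 on the log2 scale. Without *FRAIL1* muscle 5 the log2 fold change was 1.69 for *Myh3*, 1.33 for *Myh8* (1.84 with it), 0.94 for *Myl6b* (1.33 with it) and 0.60 for *Hes6* (0.74 with it), and each was called again. *Actc1*, *Klhl41* and *Lmod3*, the most abundant of those not called, had log2 fold changes of 1.04, 0.22 and 0.12.

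The list of satellite cell genes held 14 genes, of which 3 rose. *Itga7*, the laminin receptor of satellite cells and of fibers, went from 155 ± 11.0 to 215 ± 31.8 CPM (SD, n = 6 each; log2 fold change 0.47, edgeR adjusted p = 0.0124). *Megf10* and *Fgfr4*, receptors of activated satellite cells, had log2 fold changes of 1.07 and 1.04, with adjusted p of 0.0287 and 0.0336 by the same edgeR test, and lost their calls in 4 and 9 of 24 alternatives. Both were called again without *FRAIL1* muscle 5, at 0.74 and 0.72. *Notch3*, *Sdc4* and *Spry1*, the most abundant of the rest, were at -0.06, 0.0011 and 0.25. The quiescence marker *Calcr* was at 0.514 ± 0.168 and 0.634 ± 0.211 CPM, with a log2 fold change of 0.31 (edgeR adjusted p = 0.531).

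Regulators around the 8 genes were described in 3 lists. Among 11 homeodomain factors and cofactors 1 rose: *Pitx3*, a homeodomain factor of differentiating myoblasts, with a log2 fold change of 0.52 (edgeR adjusted p = 0.0343), a call that was lost in 8 of 24 alternatives. *Eya4* and *Eya1*, cofactors without DNA binding of their own, were at -0.07 and -0.28, neither of them called. Among 8 partners, *Smarcd3*, the chromatin remodelling subunit that assists Myod1, fell by 0.36 with an adjusted p of 0.0499 in edgeR's quasi-likelihood test, a call that was lost in 13 of 24 alternatives, and *Chpf2* overlaps 48.2% of its transcript together with *Mir671* from the opposite strand. *Mef2c* and *Mef2d* were at -0.0037 and -0.18, not called. Among 15 inhibitors 1 rose: *Mdfi*, which holds myogenic factors in the cytoplasm, went from 3.05 ± 0.773 to 13.7 ± 5.54 CPM (SD, n = 6 each; log2 fold change 2.17, edgeR adjusted p = 0.00151). Every *FRAIL1* muscle lay above every Control muscle for *Mdfi*, which was so for 3.12% of all genes tested. Its fitted change was larger than that of each of the 8 regulators, but the difference was not tested. *Bhlhe40*, *Hdac5* and *Bhlhe41*, the most abundant other inhibitors, were at -0.07, -0.18 and -0.22, not called.

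Among 21 other fusion genes, *Mymx*, *Itgb1* and *Cdc42* rose and none fell in edgeR's test. DESeq2 called 4 higher and 3 lower, the latter *Jam2*, *Stab2* and *Rac1*, where it called 14.3% of all genes tested in either direction. *Itgb1* and *Cdc42*, general genes of adhesion and of the actin skeleton, had log2 fold changes of 0.26 and 0.22, and lost their calls in 10 and 16 of 24 alternatives. *Itgb1* was at 0.21 and called without *FRAIL1* muscle 5, and *Cdc42* at 0.19 and not called. *Rac1*, *Dysf* and *Ehd2* were at -0.17, -0.01 and -0.16, none of them called by edgeR, and *Daglb* on the opposite strand overlaps 51.4% of the *Rac1* transcript. *Mymk* and *Mymx*, the pair whose products act in myoblast fusion itself, were the fusion genes with a log2 fold change above 1.

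Markers of other cells and states moved in the same muscles, and their part in the changes of *Myog* and *Mymk* was not tested. Of 7 proliferation genes, *Cdk1* and *Cenpf* were called higher (list median 0.54). The sum of the list was 23.0 to 31.1 CPM in Control and 30.4 to 64.7 CPM in *FRAIL1* muscles. Muscle 5 gave the highest of these sums, and the other *FRAIL1* muscles were at 40.1 CPM or less. Of 7 genes associated with denervation, 4 were called higher, *Chrna1*, *Ncam1*, *Chrng* and *Runx1*, with a list median of 0.89. The denervation sums were 72.7 to 112 CPM in Control and 162 to 288 CPM in *FRAIL1* muscles and did not overlap. *Chrna1* alone held 29.5 of a mean sum of 98.1 CPM in Control and 81.0 of 213 CPM in *FRAIL1* muscles. Over all genes tested singly, 4.43% were called higher and 3.12% were higher without overlap. The denervation list shares *Chrna1*, *Chrng* and *Musk* with the differentiation targets. *Musk* was at 3.45 ± 0.511 and 3.82 ± 1.22 CPM and was not called. Without *FRAIL1* muscle 5 the denervation list had 3 genes called higher and the proliferation list 1, against 3.69% of all genes tested.

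Fibroadipogenic cells, the resident matrix-forming cells of muscle, were read from 7 genes. Of these edgeR's quasi-likelihood test called none, 4 had an unadjusted p under 0.05 in that test and DESeq2 called 2. Over all genes tested, 27.7% had an unadjusted p under 0.05 and DESeq2 called 14.3% in either direction. Of all genes tested singly, 3.12% were higher in *FRAIL1* muscles without overlap. The sums of the 7 fibroadipogenic genes, weighted to the most abundant of them, did not overlap. These sums were 1009 to 1813 CPM in Control and 1915 to 4905 CPM in *FRAIL1* muscles. The highest of these was muscle 5, and the others of its group were at 2390 CPM or less. Without it 1 of the 7 genes, *Col1a1*, was called higher. Of 8 macrophage genes edgeR called none, 5 had an unadjusted p under 0.05 and DESeq2 called 5, with a median log2 fold change of 0.58 and sums of 132 to 207 CPM in Control and 170 to 370 CPM in *FRAIL1* muscles. Over 10 fiber genes the median log2 fold change was -0.19 with 1 called lower by edgeR, *Ckm*. DESeq2 called 4 of them lower, *Ckm*, *Myh4*, *Tnnt3* and *Ttn*. The fiber sums were 137460 to 162060 CPM in Control and 109107 to 146408 CPM in *FRAIL1* muscles, with muscle 5 the lowest. Of 6 endothelial genes edgeR called 1 lower, *Tek* (median -0.18), and of 4 tenocyte genes 1 higher, *Scx* (median 0.50). Over all genes tested edgeR called 1.85% lower and 4.43% higher. DESeq2 called 2 endothelial genes lower and 1 tenocyte gene higher. Without *FRAIL1* muscle 5 edgeR called 2 endothelial and 2 fiber genes lower and 1 tenocyte gene higher. In that fit 393 of 15590 genes tested were called lower and 3.69% higher.

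No Schwann cell, smooth muscle and pericyte, or lymphocyte gene was called by edgeR's quasi-likelihood test, with list medians of -0.26, -0.19 and -0.14. An unadjusted p was under 0.05 in edgeR's test for 2, 2 and 0 of their 5, 4 and 4 genes tested, and DESeq2 called 2, 0 and 0. The shares over all genes tested were 27.7% and 14.3%. *Ms4a1*, the B cell marker of the lymphocyte list, was at 0 in some muscles and was not tested.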

How the data were processed

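RNA-seq counts of 12 TA muscles were used, 6 Control and 6 *FRAIL1*. The authors trimmed reads with Trimmomatic, mapped them to mm10 with STAR 2.7.8a and deposited whole-number counts of uniquely mapped reads per gene from featureCounts 2.0.1, without normalization. Whether strand was used in counting is not given in the sources used here. Of 27179 Gene IDs, 25275 matched a symbol in RefSeq, and the others held 0.280% of counts. Gene positions, exon overlaps, transcript lengths and the transcripts searched for copies came from GENCODE vM21 (GRCm38).

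The 15502 genes that passed filterByExpr were compared, after TMM scaling, with edgeR 4.0.16 (robust quasi-likelihood) in R 4.3.3, two-sided, group as the only term, with a threshold of 0.05 after Benjamini-Hochberg adjustment over all genes tested. The scripts were tested on simulated data. Ratios used log2(CPM + 0.05). Copies were sought with BLAST 2.17.0, and promoters came from RefSeq (GRCm38.p6). Alternatives were a replicate block, other scalings and filters, a fit that was not robust, DESeq2 1.42.0, limma 3.58.1 (voom), and each muscle or both muscles numbered 5 left out.

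The 8 genes and all lists were chosen with earlier results of these data known. Named were the 8 genes, called genes of each pathway list (at most 6 by smallest p), at most 3 abundant genes that were not called, abundant or called markers, and the 3 genes nearest to each called member. *Calcr*, *Musk*, *Ms4a1*, *Jam2*, *Stab2*, *Tnnt3*, *Ttn*, *Mir671*, *Adora1*, *Chpf2* and the differentiation targets beyond the first 6 were named besides, with values known. The lists covered satellite cell genes, homeodomain factors and cofactors, partners, inhibitors, fusion genes, differentiation targets, and markers of fibers, proliferation, denervation, macrophages, fibroadipogenic cells, endothelium, Schwann cells, tenocytes, smooth muscle and pericytes, and lymphocytes. Proteins were not analysed here.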

Additional observations from a re-analysis of the deposited data

Results flagged for a closer look

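In 58 groups of 6 muscles, made up of the 8 regulators and the called genes of the pathway lists, the highest or lowest muscle was set against the other 5. Dixon's ratio was held against its 95% critical value, which normally distributed values exceed in about 1 in 20 groups. CPM was used without a log, and the list genes were chosen as called in these same muscles. That rate is therefore no reference for the count found here. The critical value was exceeded in 10 groups, and in each the muscle was *FRAIL1* muscle 5 and its value the highest. Among the 8 regulators these were *Pax7*, at 4.56 CPM where the other 5 *FRAIL1* muscles lay between 3.06 and 3.56, and *Myog*, at 64.1 CPM against 20.3 to 32.0. *Mymk*, at 27.7 CPM, did not exceed it.

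For genes of activated satellite cells and of fusion, the muscle measured 22.3 CPM of *Fgfr4* against 7.71 to 11.3, 8.62 CPM of *Megf10* against 2.69 to 4.02, 5.12 CPM of *Mymx* against 1.87 to 3.06, and 386 CPM of *Itgb1* against 296 to 323. Among the differentiation targets it measured 541 CPM of *Myh3* against 104 to 216, 876 CPM of *Myh8* against 153 to 390, 61.0 CPM of *Myl6b* against 13.6 to 28.5, and 25.9 CPM of *Hes6* against 13.5 to 18.2. The groups also share this library, so the 10 cases are not independent of each other.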

How the results depend on the processing

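Of 192 values for the 8 regulators under 24 alternatives, 179 kept their direction and their side of the threshold, 13 passed it anew and 0 reversed. *Myog* and *Mymk* were called in all 24. *Pax7*, *Myf5* and *Myod1* were called in 4 each, *Myf6* in 1, *Cdh15* and *Six4* in 0. The number of the 8 called was 2, became 5 with DESeq2, and lay between 2 and 3 with 1 muscle left out, where *Myf5* (adjusted p = 0.0340 in edgeR's test) joined without *FRAIL1* muscle 3. Of 504 values for the 21 called list genes, 431 kept their call and direction, 73 lost the call and 0 reversed. The number of list genes called was 14 to 26 with 1 muscle left out. Genes called over the whole table numbered 974 and became 1756 with voom, 2211 with DESeq2 and 364 to 2110 with 1 muscle left out (364, 1579 and 2110 without *FRAIL1* muscles 1, 2 and 3, and 400 to 537 without any 1 Control muscle). Changed ratios numbered 14, and 12 to 17 with 1 muscle left out. Offsets of 0.5 and 0.01 CPM gave 14 again. The cause of these differences was not tested.

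Both groups carry numbers 1 to 6, and the labels do not say what a number marks. Deviations from the group means correlated at 0.322, 0.197, 0.350, 0.321, 0.0723 and 0.228 between muscles of the same number, and the muscles numbered 5 alone did not correlate best with their own number. With the replicate block, 2186 genes were called in edgeR and 5 of the 8 regulators (*Pax7*, *Myf5* and *Myod1* added, adjusted p = 0.0345, 0.0486 and 0.0107). With the block and without both muscles numbered 5 these were 2305 and 4, and with the block in DESeq2 they were 2875 and 6, with 35 list genes. Flipping signs within numbers changed 0 of 28 ratios, where 15 pairs were at 0.03125, the smallest p this exact test can give, and the lowest adjusted value was 0.0583. *Pax7* and *Myf5* had the fewest counts of the 8.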
